A study of Homo sapiens with 12 samples.

Results

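The 10 keratin genes described here were taken by symbol from tables that list 60504 genes for each of 12 RNA-seq libraries of T24 cells, a line established from a human bladder carcinoma. They are the type II keratins KRT5, KRT7, KRT8, KRT80 and KRT81 and the type I keratins KRT14, KRT17, KRT18, KRT19 and KRT20. The rule itself uses only the symbols and no measured value, but the members and the gene lists used below were chosen with earlier results of these data known. Counts of them set against the share of all genes are therefore descriptions. In the knockout comparison, 2 libraries labelled knockout U11 were set against 2 libraries of untreated T24. The knockout cells had been edited with Cas9 and a pair of guide RNAs at U11 and grown from a clone. In the overexpression comparison, 6 libraries labelled overexpression U11, from T24 cells transfected with the plasmid pcDNA-U11 and cloned, were set against 2 further libraries of untreated T24. The 6 libraries carry the line labels 79, 86 and 87, with 2 libraries each, so each line is a single label and not a set of independent clones. U11 is a small nuclear RNA of the minor spliceosome. The labels do not say whether 2 libraries of a group came from separate cultures, so P-values measure only the spread between these libraries, which may be technical.

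Keratins are the intermediate filament proteins of epithelial cells. A filament forms only from a type I and a type II keratin together, so members of the families are usually expressed in pairs. KRT8 and KRT18 are the pair of simple epithelia, KRT7 and KRT19 accompany them in urothelium, KRT5 and KRT14 mark basal cells, KRT20 marks the umbrella cells at the surface, KRT17 is a keratin of wounded and proliferating epithelium, KRT80 is a broadly expressed epithelial keratin, and KRT81 is a keratin of the hair shaft that is also found in carcinoma cell lines.

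On hg38, the type II genes and KRT18 lie together on the long arm of chromosome 12 and the other type I genes on that of chromosome 17. In the coordinates of the deposited tables, KRT80 is at chr12:52168996-52192000, KRT7 at chr12:52232520-52252186, KRT81 at chr12:52285913-52291534, KRT5 at chr12:52514575-52520687, KRT8 at chr12:52897187-52949954 and KRT18 at chr12:52948871-52952901. KRT7 and KRT18 are on the plus strand and the others on the minus strand. KRT20 is at chr17:40875941-40885227, KRT19 at chr17:41523617-41528308, KRT14 at chr17:41582279-41586921 and KRT17 at chr17:41619437-41624842, all on the minus strand. The entries of KRT8 and KRT18 overlap by 1084 bases on opposite strands, and the strand setting of the libraries was not stated.

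KRT81 is the member whose sequence is shared most with another gene. Of all windows of 100 bases in its GENCODE v44 canonical transcript, 30.3% occur without a mismatch in a transcript of another keratin gene, and 29.4% occur in KRT86, a neighbouring hair keratin whose entry spans all of KRT81 on the opposite strand. The shares were 7.12% for KRT8, mostly with its pseudogenes, 6.05% for KRT14, 1.64% for KRT5, 0.353% for KRT17 and 0 for KRT7, KRT18, KRT19, KRT20 and KRT80. The longest run common to the coding sequences of KRT81 and KRT86 was 605 bases. The last 20 bases of that run and the 60 coding bases after it, bases 646 to 725 of each coding sequence, are shown because reads from such stretches may be placed on either gene. The capitals mark the 2 bases that differ.
KRT81: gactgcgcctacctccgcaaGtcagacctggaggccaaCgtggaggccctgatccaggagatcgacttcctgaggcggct
KRT86: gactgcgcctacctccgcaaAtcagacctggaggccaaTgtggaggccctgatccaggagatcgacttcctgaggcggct

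Levels are given as TPM, the transcript share of a library, which is scaled by gene length and by library. KRT7 had the highest level of the 10 keratins in every library, from 1085 to 1308 TPM in the knockout comparison and from 3503 to 6703 TPM in the overexpression comparison, where it ranked from the 5th to the 20th gene of its library. KRT8 ranged from 367 to 399 TPM and from 1080 to 1458 TPM in these comparisons, KRT18 from 270 to 400 and from 547 to 724 TPM, and KRT19 from 90.3 to 158 and from 193 to 321 TPM. KRT80, KRT17 and KRT81 were lower, at 1.47 to 53.1 TPM over all 12 libraries. By TPM, KRT8 was above KRT18 in all libraries but the 2 controls of the knockout comparison. There the levels were 372 and 367 TPM for KRT8 and 400 and 373 TPM for KRT18. By the read depth described below for KRT7, KRT8 was below KRT18 in every library. The ratio of that depth to FPKM, as a fraction of its limit, was 0.036 to 0.037 for KRT8 and 0.471 to 0.487 for KRT18. Depth therefore does not rank the pair by level.

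The basal pair and the umbrella cell keratin were near absent. KRT5 and KRT20 were listed at 0 in all 8 libraries of the overexpression comparison and reached at most 0.138 and 0.0457 TPM in the knockout comparison. KRT14 reached at most 0.438 TPM, in a library of line 79, and was listed at 0 in 6 of the 12 libraries. These 3 genes were under the minimum of 1 TPM in 2 libraries and were not tested. The 10 members held 98.8 to 99.7% of all keratin TPM.

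**Figure D1:**
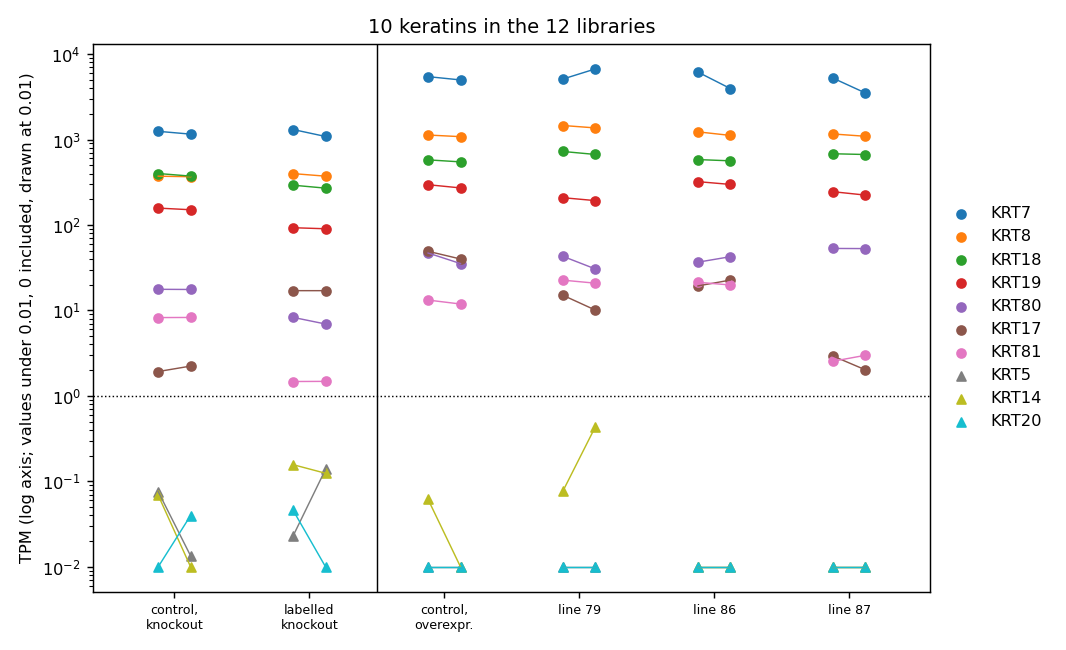
TPM of the 10 keratins (log axis) in the 12 libraries, by group; each point is a library, points of a group are joined, the dotted line is at 1 TPM and the vertical line separates the 2 comparisons. KRT7, KRT8, KRT18 and KRT19 stay above 90 TPM throughout, KRT80, KRT17 and KRT81 lie between 1.47 and 53.1 TPM, and KRT5, KRT14 and KRT20 lie under 1 TPM.

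The line was checked against its labels. U11, summed over its 2 entries, measured 21.4 and 23.8 TPM in untreated cells of the knockout comparison. Under the knockout label it measured 31.6 and 37.4 TPM, higher and not lower. By quantitative PCR, the study reported less U11 in its knockout cells and more in its overexpressing cells. How well these libraries capture so small an RNA was not tested. In the overexpression comparison, U11 was at 0.0334 and 0.623 TPM in the controls, 0.183 and 0.412 TPM in line 79, 3.98 and 3.72 TPM in line 86, and 61.9 and 53.6 TPM in line 87, so line 79 did not exceed its controls. Of 10 urothelium markers, 3 were tested (GATA3, PPARG and FOXA1) and the other 7, the uroplakins among them, were under 1 TPM in every library. The 6 epithelium markers summed to 1.25 to 3.62 TPM, with CDH1 at most 0.155 TPM. The 10 highest genes took 45.5 to 49.6% of all TPM in the libraries of the knockout comparison and 7.06 to 7.56% in those of the overexpression comparison, so TPM levels are not comparable between them. In bulk libraries, fewer cells with a transcript and less transcript per cell cannot be told apart.

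In the libraries labelled knockout U11, KRT17 rose and KRT81, KRT80 and KRT19 fell, while KRT7 and KRT8 differed by no more than 0.06 on the log2 scale. A gene was called with an unadjusted P under 0.05 and a change of at least 1.5-fold, from limma on log2(TPM + 1); adjusted P is the Benjamini-Hochberg value over all genes tested. By this rule 4 of the 7 keratins tested were called, against 11.8% of the 14356 genes tested, and the same 4 passed with the adjusted P, against 6.85%. The numbers in each direction were 1 up and 3 down, against 8.61% and 3.15% of all genes.

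In the controls KRT17 measured 1.93 and 2.23 TPM, and in the libraries labelled knockout U11 it measured 17.04 and 17.03 TPM. The groups were far apart and the libraries within each nearly equal, with a ratio of mean TPM of 8.19. The log2 change was 2.55 (SE 0.12, adjusted P = 0.0047). It was the only one of the 7 tested keratins that was called higher.

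KRT81 went the opposite way, from 8.25 and 8.28 TPM in the controls to 1.47 and 1.48 TPM, which is 5.6-fold lower by mean TPM. Its log2 change was -1.90 (SE 0.12, adjusted P = 0.0064). KRT86, with which it shares sequence, measured 0.507 and 0.373 TPM in untreated cells and 0.305 and 0.455 TPM under the knockout label, below the minimum for testing, and the groups overlapped.

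The control levels of KRT80 were 17.7 and 17.6 TPM, and those under the knockout label 8.29 and 6.94 TPM, a log2 change of -1.12 (SE 0.13, adjusted P = 0.020). KRT19, the smallest keratin and one without a tail domain, went from 158 and 151 TPM to 92.8 and 90.3 TPM, a log2 change of -0.74 (SE 0.08, adjusted P = 0.019). Neither gene's groups overlapped. By mean TPM, KRT80 was 2.32-fold and KRT19 1.68-fold lower.

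The KRT8 and KRT18 pair shifted in its proportion. KRT18 measured 400 and 373 TPM in untreated cells and 292 and 270 TPM under the knockout label, and its log2 change of -0.46 (SE 0.08, adjusted P = 0.045) was under 1.5-fold and so not called. KRT8 was at 372 and 367 TPM against 399 and 372 TPM, a log2 difference of 0.06 with a 95% interval from -0.13 to 0.25. The ratio of KRT8 to KRT18 was thus 0.931 and 0.983 in the controls and 1.37 and 1.38 in the libraries labelled knockout U11. The median log2 change of all genes tested was 0.11, and relative to it KRT18 was at -0.57, KRT8 at -0.05 and KRT17 at 2.44. With scaling by the median ratio over genes, KRT18 was at -0.59 and passed both thresholds, which made 5 keratins called, and KRT8 was at -0.06.

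KRT7, the keratin with the highest level, measured 1247 and 1156 TPM in untreated cells and 1308 and 1085 TPM under the knockout label. The groups overlapped, and the log2 difference of -0.01 had a 95% interval from -0.30 to 0.28.

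**Figure D2:**
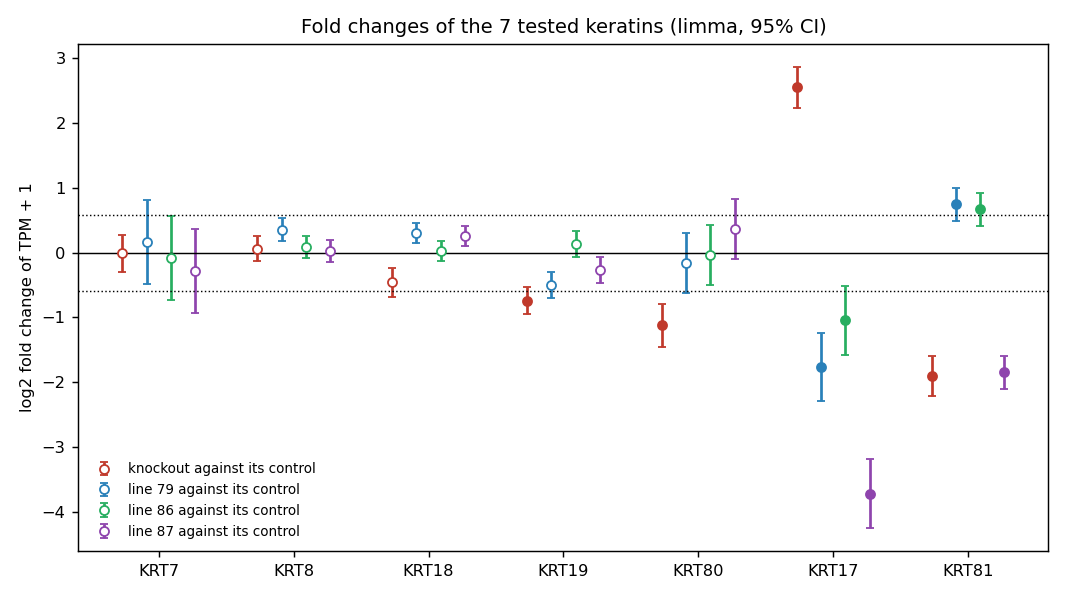
Log2 fold change of TPM + 1 (y axis) of the 7 tested keratins against the controls of their own comparison, for the libraries labelled knockout U11 and for each line labelled overexpression U11; bars are 95% confidence intervals from limma, filled points were called and dotted lines mark 1.5-fold. KRT17 lies at 2.55 for the knockout label and at -1.77, -1.05 and -3.72 for lines 79, 86 and 87, and KRT81 is above 0 in lines 79 and 86 and below 0 in line 87 and for the knockout label.

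When the 6 libraries labelled overexpression U11 were pooled against their 2 controls, KRT17 was the only keratin called, 1 of 7 tested, against 1.93% of the 15768 genes tested (0.767% higher and 1.16% lower). The log2 change of KRT17 was -2.18 (SE 0.78), with an unadjusted limma P of 0.021 and an adjusted P of 0.70. No keratin passed with the adjusted P, against 0.165% of all genes. Without the control in replicate 3 the limma P of KRT17 was 0.10, and without the control in replicate 4 it was 0.067, so either control decided the call. The 2 libraries of a line are not independent of each other; with the mean of each line in their place, the log2 change was -2.16 and the limma P 0.028. The lines lay far apart and are therefore given singly, each against the same 2 controls.

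KRT17 was lower in each of the lines, by a different amount. It was at 49.19 and 39.98 TPM in the controls, at 15.0 and 10.1 TPM in line 79, at 19.4 and 22.7 TPM in line 86 and at 2.93 and 2.02 TPM in line 87. No library of a line reached the lower control. By mean TPM, KRT17 was 3.55-fold lower in line 79, 2.12-fold lower in line 86 and 18.0-fold lower in line 87.

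The log2 change of KRT17 was -1.77 (SE 0.22, adjusted P = 0.0062) in line 79 and -3.72 (SE 0.22, adjusted P = 0.00062) in line 87. In line 86 it was -1.05 (SE 0.22, adjusted P = 0.085), which passed without adjustment only. Within the libraries whose titles begin R17018 the log2 differences of lines 79, 86 and 87 were -1.65, -1.30 and -3.68, and within those whose titles begin R18019 they were -1.89, -0.79 and -3.76. The direction was the same in both sets in each line.

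KRT81 was higher in lines 79 and 86 and lower in line 87. It was at 13.2 and 11.9 TPM in the controls, at 22.6 and 20.8 TPM in line 79, at 21.3 and 19.8 TPM in line 86 and at 2.54 and 2.99 TPM in line 87. The controls lay between these groups and overlapped none of them. The log2 change was 0.75 (SE 0.11, adjusted P = 0.0092) in line 79, 0.67 (SE 0.11, adjusted P = 0.038) in line 86 and -1.85 (SE 0.11, adjusted P = 0.00058) in line 87.

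Pooled over the lines, the log2 value of KRT81 was -0.14 with a 95% interval from -2.00 to 1.72. By mean TPM, KRT81 was 1.73-fold and 1.64-fold higher in lines 79 and 86 and 4.54-fold lower in line 87. Within the title sets R17018 and R18019, the log2 differences were 0.73 and 0.76 in line 79, 0.65 and 0.69 in line 86, and -2.00 and -1.69 in line 87. KRT86 was at 0.686 and 0.762 TPM in the controls, 0.880 and 0.797 TPM in line 79, 0.839 and 1.22 TPM in line 86 and 0.493 and 0.457 TPM in line 87, with its lowest values also in line 87.

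**Figure D3:**
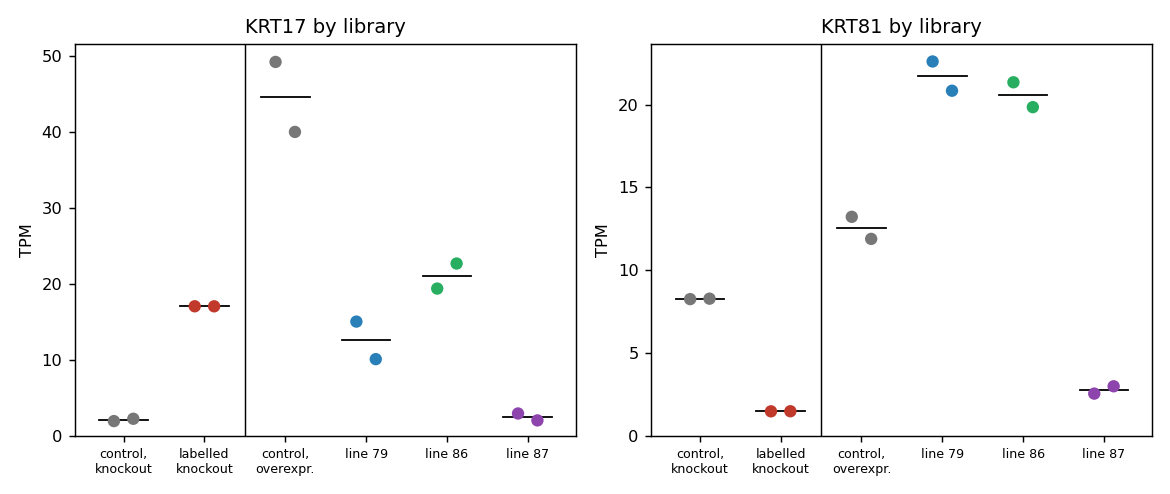
TPM of KRT17 (left) and KRT81 (right) in the 12 libraries by group; each point is a library and each bar the mean of its group, and the vertical line separates the 2 comparisons. KRT17 is lower in all 3 lines than in the controls at 39.98 and 49.19 TPM, while KRT81 is near 21 TPM in lines 79 and 86 and under 3 TPM in line 87.

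In line 79 and in line 86, 1 keratin was called higher (KRT81) and 1 lower (KRT17), and in line 87 both were called lower. The 2 of 7 keratins called stand against 7.95% of all genes tested in line 79 (2.43% higher, 5.52% lower), 3.6% in line 86 (1.59% higher, 2.01% lower) and 5.13% in line 87 (2.08% higher, 3.05% lower). With the adjusted P the numbers were 2 in line 79, against 5.63%, 1 in line 86 (KRT81), against 1.37%, and 2 in line 87, against 2.65%. The 3 lines share their controls. U11 TPM was highest in line 87, intermediate in line 86 and lowest in line 79, where it did not exceed the controls. KRT17 was lowest in line 87, then 79, then 86. A relation of KRT17 to U11 was not tested.

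The lines were then compared with each other, without the controls, by a moderated F test. KRT17, KRT81 and KRT19 were called, 3 of 7, against 14.6% of all genes, and the same 3 passed with the adjusted P, against 10.8%. By the adjusted P alone, with no limit on the fold, KRT8 passed too, which made 4 of 7, against 16% of all genes. KRT81 differed by 2.59 on the log2 scale between lines 79 and 87 (adjusted P = 0.00013) and by 2.52 between lines 86 and 87 (adjusted P = 0.00029), while lines 79 and 86 differed by 0.07 (adjusted P = 0.72). KRT17 was 1.95 higher in line 79 than in line 87 (adjusted P = 0.0037) and 2.67 higher in line 86 than in line 87 (adjusted P = 0.0021), and the difference of -0.72 between lines 79 and 86 had an adjusted P of 0.087.

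KRT19 was at 296 and 271 TPM in the controls, at 208 and 193 TPM in line 79, at 321 and 298 TPM in line 86 and at 245 and 224 TPM in line 87. It was lowest in line 79 and highest in line 86, and no group overlapped another. The difference between lines 79 and 86 was -0.62 on the log2 scale (adjusted P = 0.0064). Against the controls, the log2 values were -0.50 (adjusted P = 0.016) in line 79, 0.13 in line 86 and -0.27 in line 87, all under 1.5-fold. The 1.54-fold difference between lines 79 and 86 was close to the limit, and on FPKM or with median ratio scaling it was 0.58 and 0.57 on the log2 scale, under 1.5-fold.

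KRT8 was at 1128 and 1080 TPM in the controls, at 1458 and 1366 TPM in line 79, at 1229 and 1116 TPM in line 86 and at 1160 and 1091 TPM in line 87. KRT18 was at 578 and 547 TPM in the controls, at 724 and 668 TPM in line 79, at 582 and 563 TPM in line 86 and at 681 and 667 TPM in line 87. In line 79 both members of the pair lay above the controls, at log2 values of 0.35 (adjusted P = 0.031) for KRT8 and 0.31 (adjusted P = 0.033) for KRT18. In line 87 only KRT18 did, at 0.26 (adjusted P = 0.092). All of these were under 1.5-fold and were not called.

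The ratio of KRT8 to KRT18 was 1.95 and 1.97 in the controls, 2.01 and 2.04 in line 79, and 2.11 and 1.98 in line 86. It was 1.70 and 1.63 in line 87, below the other 6 libraries. The pseudogenes of KRT8 summed to 12.6 to 26.6 TPM and those of KRT18 to 3.89 to 9.28 TPM over the 12 libraries, small beside the levels of their parent genes.

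**Figure D4:**
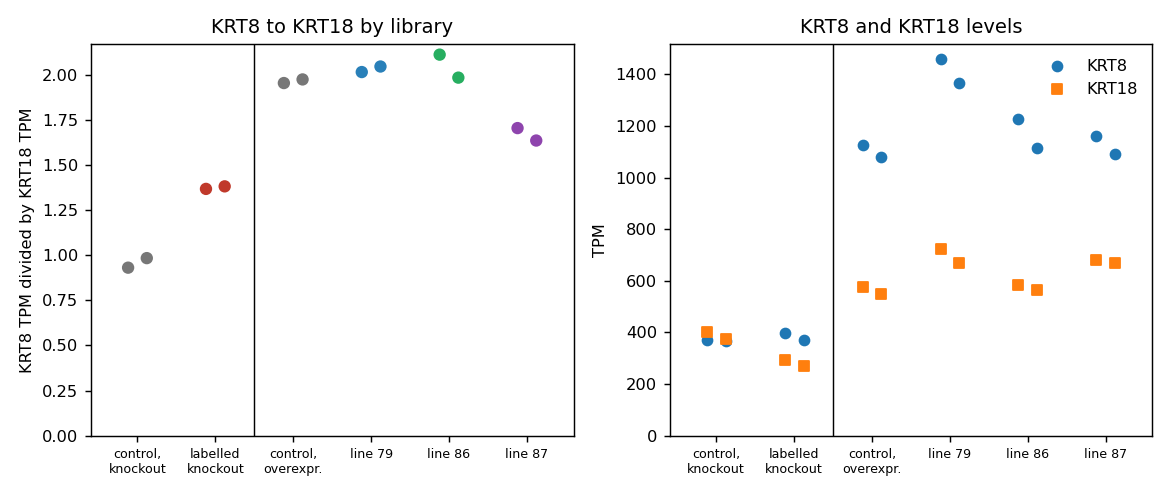
Left, TPM of KRT8 divided by TPM of KRT18 in each of the 12 libraries; right, TPM of both genes, circles for KRT8 and squares for KRT18, with a vertical line between the 2 comparisons. The ratio is 0.931 and 0.983 in the controls of the knockout comparison and 1.37 and 1.38 in the libraries labelled knockout U11, and 1.70 and 1.63 in line 87 against 1.95 to 2.11 in the other libraries of its comparison.

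KRT80 was at 47.0 and 35.3 TPM in the controls, at 42.9 and 30.5 TPM in line 79, at 36.7 and 42.6 TPM in line 86 and at 53.1 and 52.9 TPM in line 87. Lines 79 and 86 overlapped the controls and line 87 lay above them. None of the changes was called, and in line 87 the log2 value of 0.37 had a 95% interval from -0.09 to 0.83. The F test between lines gave an adjusted P of 0.19.

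KRT7 varied more between libraries of the same line than between lines. It was at 5438 and 4976 TPM in the controls, at 5107 and 6703 TPM in line 79, at 6140 and 3942 TPM in line 86 and at 5226 and 3503 TPM in line 87. All groups overlapped, the coefficients of variation within lines 79, 86 and 87 were 19.1, 30.8 and 27.9%, and the log2 values of 0.17, -0.08 and -0.28 had 95% intervals that included 0. KRT8 varied by 4.61, 6.79 and 4.36% in the same libraries.

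The spread of KRT7 was wider in TPM than in read depth. The tables also give the mean read depth over a gene (Coverage), and its ratio to FPKM has an upper limit in each library that many genes share. As a fraction of that limit, the ratio of KRT7 was 0.194 to 0.197 in 5 libraries of the overexpression comparison and 0.273 to 0.282 in the other 3. These 3 were replicate 1 of line 79 and replicate 3 of lines 86 and 87, the lower TPM of each pair. For KRT8 the ratio was 0.036 throughout. FPKM is the denominator of the ratio, so with steady depth a lower level gives a higher ratio by arithmetic. The match with the lower TPM is thus not a separate observation. KRT7 overlaps KRT86 by 2887 bases on its own strand and RP3-416H24.1 by 2401 bases on the opposite strand.

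Read depth rescaled to the TPM scale left KRT7 at 1068 and 968 in the controls, 1443 and 1303 in line 79, 1200 and 1102 in line 86 and 1028 and 955 in line 87. The coefficients of variation within the lines were then 7.21, 5.99 and 5.15%, and line 79 lay above every other library of the comparison. On this scale, chosen after the TPM values were seen, the log2 value of line 79 was 0.43 (SE 0.09, limma, adjusted P = 0.032), under 1.5-fold. The F test between lines on this scale gave an adjusted P of 0.037. RP3-416H24.1 was at 58.9 and 59.4 TPM in line 79 and at 35.0 to 42.3 TPM in the other 6 libraries. Its part in the level of KRT7 was not tested.

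**Figure D5:**
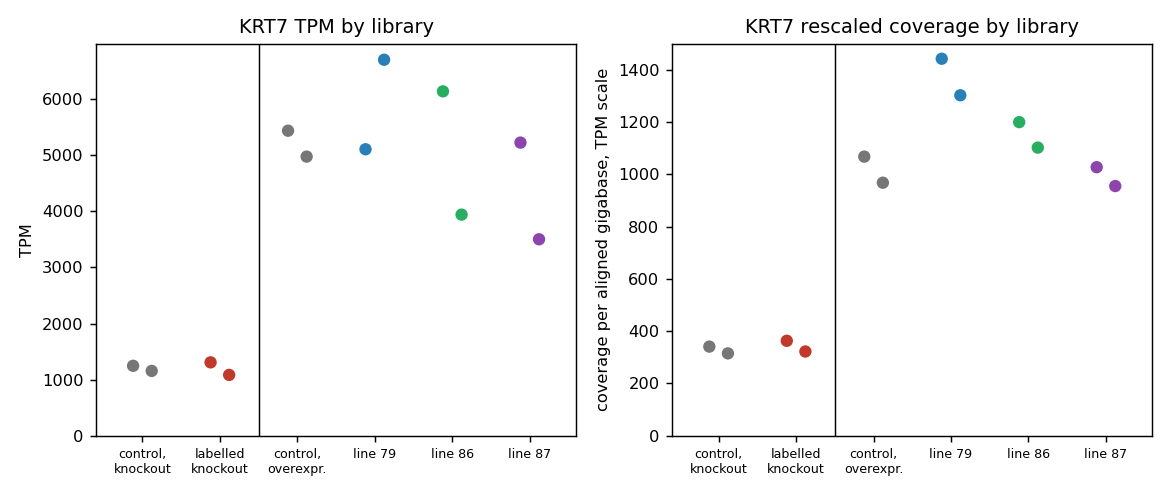
KRT7 in the 12 libraries by group, as TPM (left) and as read depth per aligned gigabase rescaled to the TPM scale (right); each point is a library and the vertical line separates the 2 comparisons. The libraries of lines 79, 86 and 87 lie far apart in TPM and close together in rescaled depth, where line 79 has the highest values, 1443 and 1303.

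By TPM, the type II keratins summed to 2.88 times the type I keratins in both controls of the knockout comparison. In the libraries labelled knockout U11 they summed to 4.04 and 3.69 times. In the overexpression comparison this ratio ran from 5.06 to 9.04, with 6.97 and 6.86 in the controls, with its highest and lowest values in the libraries where KRT7 TPM was highest and lowest. KRT7 made up 63.2 to 74.5% of the members' sum. For every 100 TPM of KRT18 there were 8.52 and 7.30 TPM of KRT17 in these controls, 2.07 and 1.51 in line 79, 3.33 and 4.03 in line 86, and 0.430 and 0.302 in line 87.

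The 3 members with the largest spread of TPM over the 8 libraries of the overexpression comparison were KRT17, KRT81 and KRT7, with SDs of 1.47, 1.12 and 0.31 on the log2 scale. Within the lines, KRT7 spread more widely in TPM than in read depth. Neither this ranking nor the nearest profiles were computed on read depth. The genes whose profiles over these 8 libraries lay nearest to KRT17 were H2AFY2, a macro-histone gene, MEST and SERPINE2, a serine protease inhibitor, at root-mean-square differences of 0.39, 0.45 and 0.46 (log2, each gene centred on its own mean). MEST, an imprinted gene, was at 15.6 and 14.9 TPM in the controls, 5.02 and 6.80 TPM in line 79, 8.56 and 9.18 TPM in line 86, and 1.63 and 1.45 TPM in line 87. Nearest to KRT81 were ADGRL2, an adhesion receptor of the latrophilin family, NTNG1, a netrin, and KIRREL3, at 0.20, 0.25 and 0.32. ADGRL2 was at 4.70 and 3.91 TPM in the controls, 5.31 to 8.58 TPM in lines 79 and 86, and 0.0911 and 0.0997 TPM in line 87. Nearest to KRT7 were C1orf109, TRAF3IP2 and NMD3, at 0.13, 0.14 and 0.14. The 8 libraries share controls and title sets, and these distances are a description.

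Of the 45 other keratin genes, 4 were tested in each comparison: KRT10, KRT15, KRT33B and KRT34. In the libraries labelled knockout U11, 1 was called higher, against 8.61% of all genes, and none lower, against 3.15%. This was KRT34, a type I hair keratin, which went from 1.40 and 1.29 TPM to 6.63 and 6.14 TPM, a log2 change of 1.65 (adjusted P = 0.0094). KRT16, which usually accompanies KRT17 in wounded epidermis, went from 0.021 and 0.051 TPM to 0.679 and 0.633 TPM, below the minimum for testing. In the lines, 1 was called, KRT15 in line 86, at 1.83 and 2.94 TPM against 1.01 and 1.18 TPM in the controls. Its log2 value was 0.67 with an adjusted P of 0.19. The shares of all genes called in lines 79, 86 and 87 were 7.95, 3.6 and 5.13%.

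Keratin filaments are tied to the cell surface at desmosomes and hemidesmosomes. Of 19 genes of these anchors, 12 were tested in the knockout comparison, of which 5 were called higher (DSP, DSG2, DSC3, PERP and DST), against 8.61% of all genes, and none lower, against 3.15%, with a median log2 value of 0.35 against 0.11 for all genes. With the adjusted P, 3 of them passed (DSG2, DSC3 and PERP), against 6.85% of all genes. DSP, desmoplakin, which joins keratins to the desmosome, went from 10.4 and 10.9 TPM to 18.7 and 15.8 TPM, a log2 value of 0.64 (adjusted P = 0.053).

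In the lines, 14 of the 19 were tested and DSP was called lower in each. The numbers called lower were 3 in line 79, 1 in line 86 and 1 in line 87, against 5.52, 2.01 and 3.05% of all genes. It was at 10.4 and 9.60 TPM in the controls, at 1.37 and 1.37 TPM in line 79, at 5.31 and 4.65 TPM in line 86, and at 1.21 and 1.56 TPM in line 87. Like KRT17, it was least reduced in line 86. The log2 changes were -2.21 (adjusted P = 0.00042), -0.88 (adjusted P = 0.028) and -2.21 (adjusted P = 0.00058). PKP2 and PKP4, plakophilins, were also called lower in line 79, at log2 values of -1.39 (adjusted P = 0.0048) and -0.68 (adjusted P = 0.0063). No anchor gene was called higher in lines 79, 86 and 87, against 2.43, 1.59 and 2.08% of all genes. The median log2 values of the 14 genes were -0.06, -0.02 and -0.06 in lines 79, 86 and 87, against -0.03, 0.01 and -0.01 for all genes.

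Of 13 other intermediate filament genes, 5 were tested. VIM, vimentin, the filament protein of mesenchymal cells, went from 1304 and 1259 TPM to 2254 and 2096 TPM in the knockout comparison, a log2 change of 0.76 (adjusted P = 0.014). It was the only gene of the 5 called there, against 11.8% of all genes. SYNM, synemin, was called lower in line 79, at 2.55 and 2.17 TPM against 4.63 and 3.91 TPM, a log2 change of -0.65 (adjusted P = 0.030). No other gene of this list was called in a line. The shares of all genes called in lines 79, 86 and 87 were 7.95, 3.6 and 5.13%.

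Of 18 transcription factors linked to keratin genes, 12 were tested in the knockout comparison, of which 4 were called higher (KLF4, ZEB2, GATA3 and ZEB1), against 8.61% of all genes, and 1 lower (FOXA1), against 3.15%, with a median log2 value of 0.25 against 0.11 for all genes. With the adjusted P 4 passed, all but GATA3 (adjusted P = 0.055), against 6.85% of all genes. KLF4, a factor of epidermal differentiation, went from 2.33 and 2.60 TPM to 10.8 and 8.81 TPM, a log2 change of 1.63 (adjusted P = 0.014). FOXA1, a factor of luminal urothelium, went from 18.3 TPM in both controls to 8.41 and 10.5 TPM, a log2 change of -0.89 (adjusted P = 0.034). The other urothelium markers tested went both ways, GATA3 at a log2 value of 0.75 and PPARG at -0.42 (not called). Of 13 transcription factors tested in the lines, SNAI1 was called higher in line 79, ZEB1 higher and KLF4 lower in line 86, and GATA3 and TFAP2C lower in line 87. These were 1, 2 and 2 of the 13, against 7.95, 3.6 and 5.13% of all genes. Of these only KLF4 did not pass with the adjusted P (adjusted P = 0.11). GATA3 measured 6.78 and 6.31 TPM in line 87 against 17.4 and 13.6 TPM in untreated cells, a log2 change of -1.12 (adjusted P = 0.016).

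Markers of other cell types were read in the same libraries. The 6 leukocyte markers summed to at most 3.51 TPM and the 5 fibroblast markers to at most 1.77 TPM in any library. Some of them followed the title set in every group of the overexpression comparison. LYZ was at 1.55 to 1.68 TPM in the R18019 libraries and at 0 in the R17018 libraries. LUM was at 0.0998 to 0.284 TPM in the R17018 libraries and at 0 in the R18019 libraries. The 4 endothelium markers summed to 4.94 and 4.82 TPM in the controls of the knockout comparison and to 0.103 and 0.140 TPM in the libraries labelled knockout U11, and to 3.16 to 5.38 TPM in the overexpression comparison other than line 79, where they summed to 34.2 and 32.4 TPM. These sums follow CDH5 alone. CDH5 was at 4.85 and 4.75 TPM in the controls of the knockout comparison, at 0.0316 and 0.0293 TPM in the libraries labelled knockout U11, and at 34.1 and 32.2 TPM in line 79. PECAM1, VWF and KDR were at most 0.297, 0.0856 and 0.0165 TPM in any library. The part of these genes in the keratin values was not tested.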

How the data were processed

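RNA of T24 cells was sequenced in 12 libraries of 9.07 to 15.3 aligned gigabases, as estimated from the tables; the depth in reads was not given. The authors deposited 1 table per library, made by the study's methods with fastp, Hisat2 on hg38 and Stringtie, with TPM, FPKM and the mean read coverage of 60504 genes. Labels name a poly(A) kit and the methods name ribosomal RNA depletion, and which was used for which libraries was not stated. The 89 histone genes summed to 27661.8 to 34278.5 TPM in the libraries of the knockout comparison. In those of the overexpression comparison they summed to 103 to 180 TPM, so the 2 sets of libraries differ in RNA content. The annotation version and the strand setting were not given in the sources used here. The members and lists were chosen with earlier results of these data known.

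Groups were taken from the treatment labels and titles. A gene had to reach 1 TPM in 2 libraries of a comparison to be fitted. limma 3.58.1 (R 4.3.3, mean-variance trend) was run on log2(TPM + 1), with Benjamini-Hochberg adjustment over all genes tested. Fold changes on this scale understate those of low genes, so ratios of mean TPM are given too. Calls used P under 0.05 before adjustment and 1.5-fold, as the study's methods did. Exact permutation of 2 against 2 libraries cannot go below P = 0.333. The lines were fitted with their controls as 4 groups. The scripts were tested on simulated data.

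All 10 members are named, each called gene of a list may be named, and for the 3 members with the largest SD over the 8 libraries of the overexpression comparison, the 3 nearest profiles. Replicate numbers did not pair the knockout libraries (correlation of deviations 0.024). Libraries of the overexpression comparison with the same title prefix (R17018, R18019) had correlations of 0.070 to 0.15. Sequences are from GENCODE v44 on hg38; its gene IDs matched all 10 members. The alternatives were a pseudocount of 0.1, FPKM, median ratio scaling, other filters, no trend, adjusted P, 1 fit of all 12 libraries, blocks by replicate number or title prefix, line means, leaving out each library, and, added after seeing the data, rescaled coverage.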

Additional observations from a re-analysis of the deposited data

Results flagged for a closer look

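The 3 lines labelled overexpression U11 differed from each other in 4 keratins by the moderated F test with an adjusted P under 0.05 and no limit on the fold, against 16% of the 15768 genes tested. The largest log2 difference between 2 lines was 2.67 for KRT17 (lines 86 and 87) and 2.59 for KRT81 (lines 79 and 87). It was 0.62 for KRT19 (lines 79 and 86) and 0.33 for KRT8 (lines 79 and 87). The adjusted P values of the F test over all 3 lines, not of these pairs, were 0.0020, 0.00015, 0.010 and 0.047 in that order. KRT8 was under 1.5-fold. Each line is a single label, so a difference in U11 and any other difference between the clones behind the lines cannot be told apart.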

How the results depend on the processing

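The counts of keratins called stayed within 1.5 times under every alternative but these: in the overexpression comparison it was 0 with the adjusted P and 0 to 1 without single libraries (0 without either control), and in line 86 it was 1 with the adjusted P. In the knockout comparison it was 4 without any single library, 5 with median ratio scaling, and in the difference between lines 2 on FPKM or with median ratio scaling and 2 to 4 without single libraries (KRT80 added without replicate 1 of line 79, KRT19 lost without replicate 3 of line 79 or replicate 1 of line 86). The replicate block, by number in the knockout comparison and by title set in the others, left the counts at 4 in the knockout comparison, 1 in the overexpression comparison, 2 in each line and 3 between lines, and changed no call; the knockout libraries share only a number. Directions turned only in differences that were not called. KRT8 in the knockout comparison was -0.041 on FPKM and -0.065 with median ratio scaling. On rescaled coverage KRT7 was 0.062 in the knockout comparison, 0.19 in the overexpression comparison and 0.18 in line 86. Without single libraries KRT7 ranged from -0.15 to 0.12 (knockout), -0.15 to 0.037 (overexpression), -0.027 to 0.37 (line 79), -0.40 to 0.24 (line 86) and -0.57 to 0.0066 (line 87), KRT80 from -0.15 to 0.25 (overexpression), -0.40 to 0.071 (line 79) and -0.24 to 0.16 (line 86), KRT81 from -0.33 to 0.21 (overexpression), KRT18 from -0.013 to 0.065 (line 86) and KRT8 from -0.017 to 0.072 (line 87). The causes were not tested. Where a group kept 1 library, that library was assumed to vary like the others.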

Other observations

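The controls of both comparisons are untreated T24 cells, in libraries of different title sets, and their keratins differed in proportion. KRT17 was at 0.482 and 0.598 TPM for every 100 TPM of KRT18 in the controls of the knockout comparison and at 8.52 and 7.30 TPM in those of the overexpression comparison, and KRT8 was at 0.931 and 0.983 against 1.95 and 1.97 times KRT18. KRT81 was at 2.06 and 2.22 against 2.29 and 2.17 TPM for every 100 TPM of KRT18. Library set, library type and comparison cannot be told apart here, and no test was made.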
